A study of Mus musculus with 1183 samples.

Results

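The 10 genes Cd3d, Cd3e, Cd3g, Trac, Cd4, Il7r, Ncr1, Klrb1c, Gzma and Prf1 were followed through single immune cells of the neonatal mouse lung. They were taken by symbol from a table of 18072 genes because they mark T cells and cytotoxic lymphocytes. The distal lungs of a female (598 cells) and a male (585 cells) mouse, 2 animals at postnatal day 7, gave the cells, and the labels put both animals under hyperoxia, that is, high oxygen. No sample at normal oxygen was analysed here, so nothing below measures an effect of oxygen, and with 1 animal per sex, differences of sex and of animal cannot be told apart. Of the 1183 cells, the labels call 46 a T cell (26 from the female and 20 from the male), 12 an NK cell (5 and 7) and 14 an IL cell (9 and 5). The labels do not spell out IL.

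T cells recognise antigen through a receptor whose alpha and beta chains, or gamma and delta chains, vary from cell to cell. The invariant CD3 chains carry the signal of that receptor into the cell, and the coreceptors CD4 and CD8 bind the presenting molecule and divide T cells into helper and cytotoxic lines. Natural killer (NK) cells and innate lymphoid cells belong to the same lineage but have no rearranged antigen receptor. NK cells kill with perforin and granzymes, and the innate lymphoid cells of the lung answer signals from damaged epithelium and depend on interleukin 7.

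The level of a gene is given in CPM (reads of the gene per 1000000 reads of the library), either of a single cell or of the library summed over the cells of 1 subtype and 1 animal. A cell was counted as having a gene at 50 CPM or more. The 72 T, NK and IL cells held 94326 to 3805806 reads each, with a median of 1246893. How the subtype labels were made is not given in the sources used here, and if they rest on expression in these same cells they are not independent of it, so levels across subtypes are a description of the labelled classes, with no test of whether the classes exist. The label NK cell covers cells of several kinds, among them 2 cells of the male under 200000 reads that had none of the 10 genes, 1 of them from a plate sorted for the endothelial protein CD31. Another 3 T cells had the macrophage and neutrophil lysozyme gene Lyz2 at 1000 CPM or more, at 12251, 5761 and 23998 CPM. Counts were repeated without these 5 cells. Intervals throughout cover counting error at most. Those on reads treat each read as an independent molecule, which reads are not, so they are too narrow. Those on shares treat cells as independent, although the cells come from 2 animals and are not replicates.

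The CD3 genes lie together on mouse chromosome 9, and Cd3g and Cd3d are read in opposite directions from starts 1355 bases apart. The 250 bases before the start are shown for the 3 CD3 genes, whose levels separate in the IL cells below, and for Gzma, the member called between NK and IL cells. Sequences and positions are those of RefSeq on GRCm38.p6, in which 8 of the 10 genes had an entry. Capitals mark matches on either strand to an E box (CANNTG), an ETS core (GGAAG), a RUNX site (TGTGGT) or a GATA site (AGATAA). The windows are chr9:44980432-44980681 on the minus strand for Cd3g, chr9:44981536-44981785 on the plus strand for Cd3d, chr9:45009612-45009861 on the minus strand for Cd3e and chr13:113100982-113101231 on the minus strand for Gzma.
Cd3g: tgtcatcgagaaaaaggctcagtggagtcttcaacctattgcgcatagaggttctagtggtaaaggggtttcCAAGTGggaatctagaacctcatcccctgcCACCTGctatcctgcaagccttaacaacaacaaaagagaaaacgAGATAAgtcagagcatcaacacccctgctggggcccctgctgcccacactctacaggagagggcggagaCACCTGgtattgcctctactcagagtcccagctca
Cd3d: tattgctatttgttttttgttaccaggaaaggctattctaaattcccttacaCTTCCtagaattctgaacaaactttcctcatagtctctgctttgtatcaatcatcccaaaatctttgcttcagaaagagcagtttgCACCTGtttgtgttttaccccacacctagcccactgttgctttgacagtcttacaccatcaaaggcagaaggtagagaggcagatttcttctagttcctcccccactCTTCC
Cd3e: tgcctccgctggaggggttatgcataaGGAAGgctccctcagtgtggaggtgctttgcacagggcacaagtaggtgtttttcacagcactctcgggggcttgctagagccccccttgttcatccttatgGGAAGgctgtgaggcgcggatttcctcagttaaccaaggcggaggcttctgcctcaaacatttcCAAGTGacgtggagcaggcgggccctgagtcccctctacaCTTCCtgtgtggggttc
Gzma: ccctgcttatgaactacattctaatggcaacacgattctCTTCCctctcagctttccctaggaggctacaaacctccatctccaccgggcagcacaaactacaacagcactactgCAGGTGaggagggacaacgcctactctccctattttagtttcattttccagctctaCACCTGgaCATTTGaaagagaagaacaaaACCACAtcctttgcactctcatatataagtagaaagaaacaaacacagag

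Each window held at least 1 E box. The letters CACCTG or their reverse CAGGTG stood in the windows of Cd3g, Cd3d and Gzma, and CAAGTG in those of Cd3g and Cd3e. The ETS core was found in the windows of Cd3d, Cd3e and Gzma, the GATA letters in that of Cd3g and the RUNX letters in that of Gzma, 50 bases before the start. These letters are common: over 32851 RefSeq windows of the same length, 66.2% held an E box, 64.1% the ETS core, 14.05% the RUNX letters and 9.99% the GATA letters. The letters TATAAA, found in 12.4% of those windows, were in none of the 4 shown. A match describes the sequence and not a bound site.

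The receptor genes were the mark of the labelled T cells. Cd3d, the delta chain of CD3, stood at 1591 CPM in the summed T cells of the female and 1552 CPM in those of the male (1571 ± 27.5, SD, n = 2 animals). Cd3e, the epsilon chain, stood at 477 and 325.9 CPM, and Cd3g, the gamma chain, at 1635 and 1887 CPM. Trac, the constant part of the receptor's alpha chain, stood at 879 and 840.2 CPM. For each of these 4 genes both animals had a higher level in T cells than in every subtype outside the T, NK and IL cells. Cd3d, Cd3e and Cd3g were also higher in T than in NK cells in both animals, whereas for Trac the animals overlapped.

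Cell by cell, 45 of 46 T cells had at least 2 of these 4 genes (97.8%, exact 95% interval 88.5% to 99.9%), and 40 had all 4. Without the 3 cells with Lyz2 it was 42 of 43. That pattern, at least 2 of Cd3d, Cd3e, Cd3g and Trac at 50 CPM, is called the T set below. Over the 46 cells Cd3d ran from 0 to 5019 CPM with a median of 1367, Cd3e from 0 to 1806 with a median of 277.2, Cd3g from 3.05 to 5455 with a median of 1901 and Trac from 0 to 2994 with a median of 754. The 1 cell without the T set, from the female, had Cd3g at 89.6 CPM and Trac at 34.1 CPM, beside Trbc1, a constant gene of the beta chain, at 2938 CPM. In the 390 Mac III cells, a macrophage subtype that should lack these genes, 0 cells reached 50 CPM of any of the 4, at a median of 1108525 reads per cell against 1225936.5 in T cells.

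Trac was below 50 CPM in 5 T cells. Of these, 2 had a constant gene of the gamma or delta chain in its place, 1 in each animal. The cell of the male had Trdc, the delta constant gene, at 622 CPM and Tcrg-C2, a gamma constant gene, at 1821 CPM, and that of the female had Trdc at 307.2 CPM and Tcrg-C2 at 395 CPM. In all, 6 of 46 T cells had a gamma or delta constant gene, and 4 of those had Trac as well. Some gamma constant genes are near-identical copies of each other, and how reads were divided between them is not given in the sources used here.

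**Figure D1:**
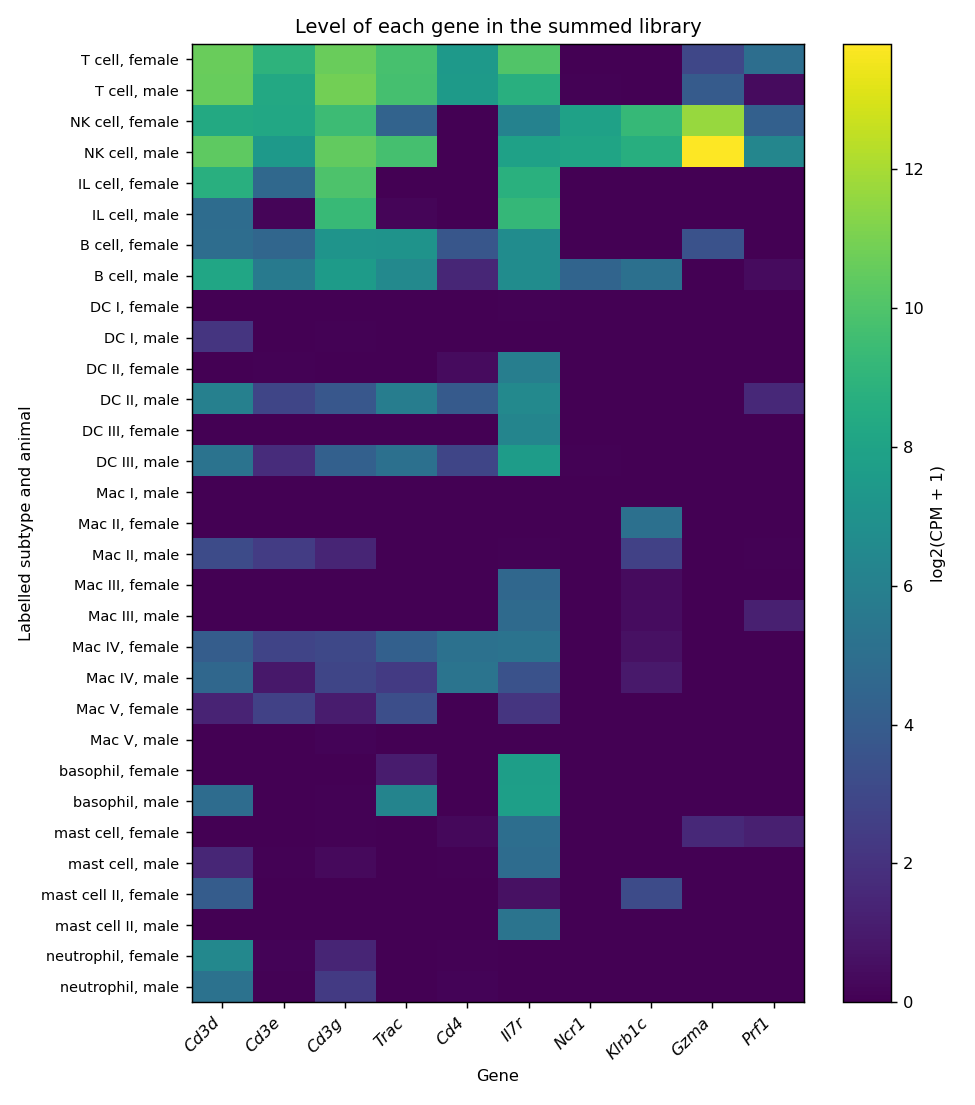
Level of the 10 genes, as log2(CPM + 1) on the colour scale, in the library summed over the cells of each labelled subtype (rows) and animal. The CD3 genes and Trac are bright in both T cell rows, and Gzma stands at 3307 and 14323 CPM in the NK cell rows. Il7r reaches basophils, IL cells and the dendritic subtypes DC II and DC III, but not DC I.

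Cd4 and the CD8 genes divided the T cells. By the 50 CPM rule, 15 of 46 T cells had Cd4 alone (9 of 26 female, 6 of 20 male), 13 had Cd8a or Cd8b1 alone (8 and 5), 3 had both and 15 had neither (8 and 7). The 3 cells with both had Cd8b1, at 106.4 to 249.5 CPM, and 0 reads of Cd8a. Among the 15 cells with Cd4 alone, Cd4 ran from 69.5 to 1495 CPM with a median of 346.7. Of the 15 with neither, 5 had some reads of Cd4, up to 25.6 CPM. In the summed T cells Cd4 stood at 172.7 CPM for the female and 184.4 CPM for the male.

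The receptor genes did not separate these classes. The median of Cd3d was 1403 CPM in the cells with Cd4 alone, 1481 CPM in those with Cd8 alone and 1100 CPM in those with neither, and the ranges overlapped. For Trac the medians were 504, 723 and 897 CPM. Nkg7, a gene of cytotoxic granules, did follow the coreceptor: it was at 50 CPM or more in 11 of 13 cells with Cd8 alone (7 of 8 female, 4 of 5 male), in 0 of 15 with Cd4 alone and in 3 of 15 with neither. Klrd1, which encodes CD94 of an inhibitory NK receptor, was found in 7 of the 13 cells with Cd8 alone and in 0 of the 15 with Cd4 alone. Foxp3, the transcription factor of regulatory T cells, was found in 4 T cells, 3 of them with Cd4. Cells are not replicates, and no test was made between the classes.

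The granule genes themselves were rare in T cells. Gzma, which encodes granzyme A, reached 50 CPM in 2 of 46 T cells, at 596 CPM (female) and 322.9 CPM (male), and both cells had Cd8. Prf1, which encodes the pore-forming protein perforin, did so in 1 cell of the female, at 582 CPM, and that cell also had Cd8. The summed level was 30.8 CPM (female) and 0.333 CPM (male), and this single cell gave 99.3% of all reads of Prf1 in T cells. Klrb1c, which encodes the NK receptor NK1.1, had 0 reads in all T cells, and Ncr1, which encodes the NK receptor NKp46, had 1 read.

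**Figure D2:**
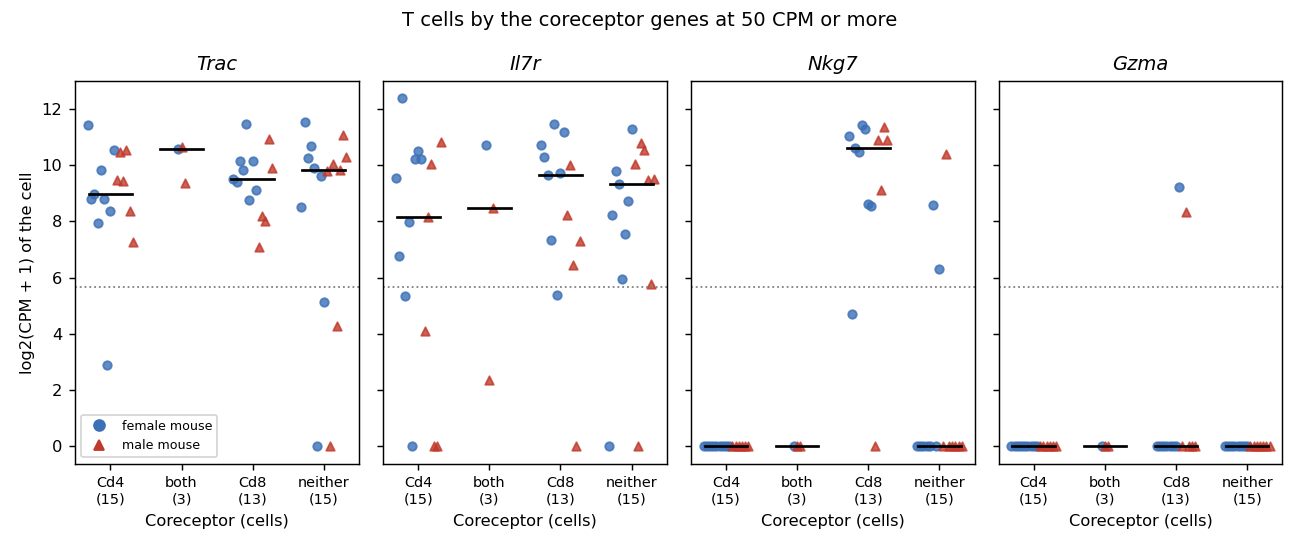
Trac, Il7r, Nkg7 and Gzma in each of the 46 T cells, as log2(CPM + 1), by the coreceptor genes at 50 CPM or more, with a bar at the median and a dotted line at 50 CPM. Trac and Il7r overlap between the classes, Nkg7 is at 50 CPM or more in 11 of 13 cells with Cd8 alone and in 0 of 15 with Cd4 alone, and Gzma in 2 cells.

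Il7r, which encodes the alpha chain of the interleukin 7 receptor, was shared by T cells and IL cells. Its level was 1046 CPM in the T cells of the female and 418 CPM in those of the male, and 433 and 576 CPM in IL cells. The animals disagreed on which subtype was higher, so the order of T and IL cells cannot be given. In NK cells it was at 67.9 and 237.03 CPM, and 68.7% of those reads came from 1 cell of the male that also had the T set. By cells, Il7r was found in 36 of 46 T cells (78.3%, exact interval 63.6% to 89.1%), 12 of 14 IL cells (85.7%, 57.2% to 98.2%) and 2 of 12 NK cells (16.7%, 2.09% to 48.4%). Thinned to 100000 reads per cell, with at least 5 reads required, the counts were 36 of 46, 12 of 14 and 2 of 11. Within T cells it was found in 11 of 13 cells with Cd8 alone, 10 of 15 with Cd4 alone and 13 of 15 with neither.

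The 12 cells labelled NK cell were mixed in the 4 NK genes and in the receptor genes. Summed over cells, Gzma stood at 3307 CPM (female) and 14323 CPM (male), Klrb1c at 615 and 407 CPM, Ncr1 at 238.7 and 265.1 CPM and Prf1 at 18.1 and 80.3 CPM. Few cells carried each sum: Gzma was found in 4 of 12 cells, at 12980, 17724, 18151 and 37961 CPM, with 0 reads in the other 8. Klrb1c was found in 7 of 12 cells, Ncr1 in 4 and Prf1 in 3. Nkg7 was the most common, in 10 of 12 cells, and 0 of 12 cells had Cd4, Cd8a or Cd8b1.

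At least 2 of the 4 NK genes were present in 5 of the 12 cells. In 2 of these there was no T set. The cell of the male had Gzma at 37961 CPM, Klrb1c at 1049 CPM, Ncr1 at 95.5 CPM and Prf1 at 160.8 CPM, with 0 reads of all 3 CD3 genes and Trac. The cell of the female had Klrb1c at 1091 CPM and Ncr1 at 214.7 CPM, with Cd3g at 514 CPM and 0 reads of Cd3d, Cd3e and Trac.

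The other 3 had the T set too. A cell of the male combined Gzma at 17724 CPM and Ncr1 at 557 CPM with Cd3g at 2550 CPM and Trac at 1018 CPM. Another of the male combined Gzma at 12980 CPM and Klrb1c at 386.3 CPM with Cd3d at 1975 CPM and Trac at 1491 CPM. Both of these also had a gamma constant gene at 50 CPM or more. The cell of the female had Gzma at 18151 CPM and all 4 NK genes, with Cd3d at only 146.2 CPM, Trac at 108.8 CPM and 0 reads of Cd3e.

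A further 2 cells had the T set with 1 or none of the NK genes. In the male, a cell had Cd3d at 3041 CPM, Trac at 1074 CPM and Klrb1c at 738 CPM. In the female, a cell had Cd3d at 1060 CPM, Cd3e at 1065 CPM, Trdc at 418 CPM and Tcrg-C1 at 1148 CPM, with 0 reads of Trac and of all 4 NK genes. In total 5 of 12 NK cells had the T set (41.7%, exact interval 15.2% to 72.3%). Without these 5 cells the summed NK libraries had 0 reads of Cd3d, Cd3e and Trac in both animals, while Cd3g was at 276.5 CPM in the female and at 0 in the male. Since the T set was defined on these genes, that remainder is a description.

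Trac in NK cells differed between the animals, at 19.8 CPM (female) and 865 CPM (male). The male has 3 cells with Trac at 1018 to 1491 CPM and the female 1 cell, at 108.8 CPM. NK cells of the female came from 2 sequencing runs, 3 cells of run DC28 and 2 of DC35, and those of the male from DC35 with 1 cell of DC30, and the part of the run in this difference was not tested.

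**Figure D3:**
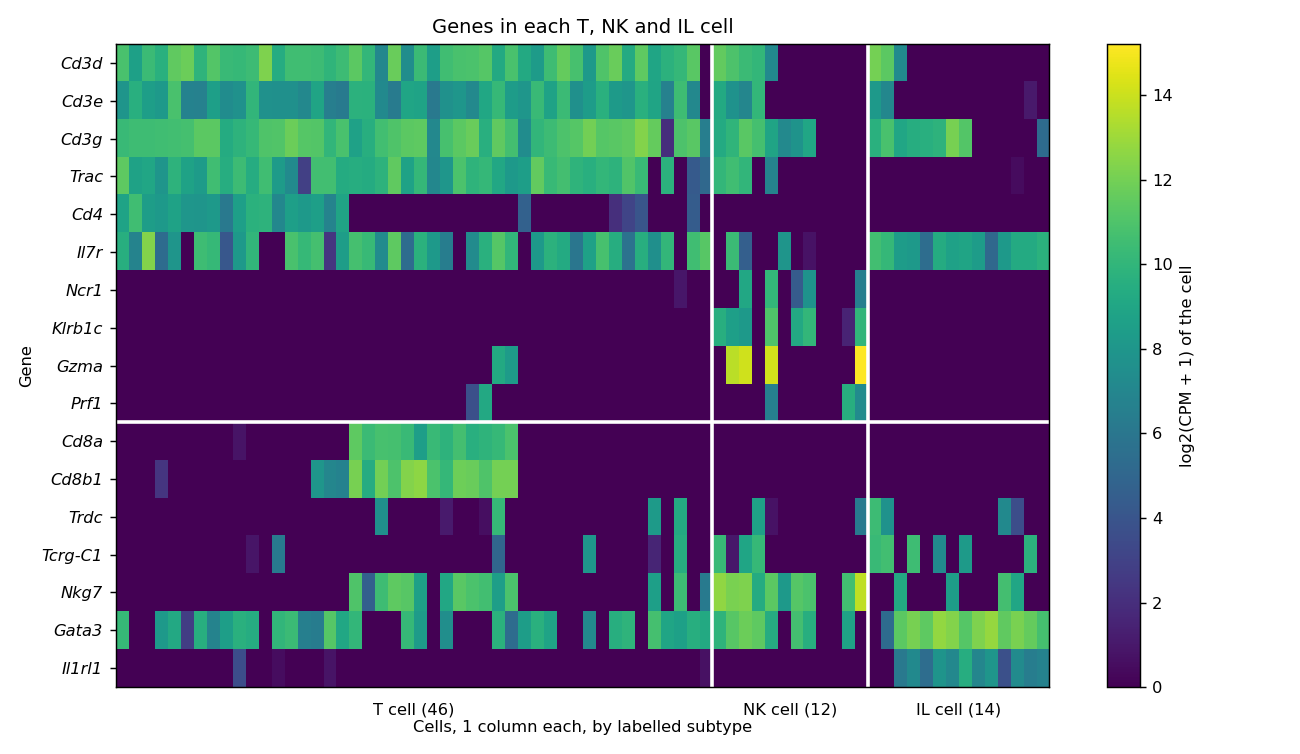
Each column is 1 of the 72 T, NK and IL cells, each row a gene, and colour is log2(CPM + 1) in that cell. The upper rows are the 10 genes and the lower rows the CD8 genes, Trdc, Tcrg-C1, Nkg7, Gata3 and Il1rl1. T cells hold the 4 upper rows nearly without gaps, and NK cells hold mixed patterns. Most IL cells have Gata3 and Il7r, with Cd3g or with none of the 4 upper rows.

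In IL cells the members found in most cells were Il7r (12 of 14) and Cd3g (8 of 14), and Cd3d was found in 3. Across the 14 cells, Ncr1, Klrb1c, Gzma, Prf1 and Cd4 had 0 reads in 22767658 reads, which allows up to 0.207 CPM (female) and 0.363 CPM (male). Trac had 1 read, in the male. Gata3, a transcription factor of type 2 innate lymphoid cells that T and NK cells also use, was at 1000 CPM or more in 12 of 14 IL cells, 4 of 12 NK cells and 7 of 46 T cells. Il1rl1, the receptor of interleukin 33 on type 2 innate lymphoid cells, was at 50 CPM or more in 10 of 14 IL cells and in 0 NK or T cells.

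Cd3g stood at 988 CPM in the IL cells of the female and 623 CPM in those of the male. It was found in 8 of 14 cells, and in 5 of these both Cd3d and Cd3e had 0 reads. In these 5 cells Cd3g was at 713, 760.4, 902 and 4336 CPM (female) and 2283 CPM (male), each with Gata3 at 2374 CPM or more. The depth of these cells was 1600568 to 1895235 reads. Cd3d was at 420.2 CPM in the IL cells of the female and 28.5 CPM in those of the male, and it came from 3 cells.

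Those 3 cells are the ones with the T set (21.4%, exact interval 4.66% to 50.8%). The 2 cells of the female had Cd3d at 4203 and 2654 CPM, Cd3e at 281.4 and 129.8 CPM, Trdc at 1360 and 212.5 CPM and Tcrg-C1 at 1287 and 1542 CPM, with Gata3 at 0 and 38.9 CPM and 0 reads of Il1rl1. The other 12 IL cells all had Gata3 at 1000 CPM or more. Most of them, but not all, also had a gamma or delta constant gene at 50 CPM or more. For example, Tcrg-C1 stood at 1451 CPM in a cell of the female and 869 CPM in a cell of the male, each with 0 reads of Cd3d. The T set cell of the male had Cd3d at 153.35 CPM, Cd3g at 506 CPM and Gata3 at 2616 CPM. Without the 3 cells with the T set, Cd3d had 0 reads in both animals and Cd3g stood at 913 and 649.6 CPM. That remainder is a description, since the T set was defined on these genes.

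**Figure D4:**
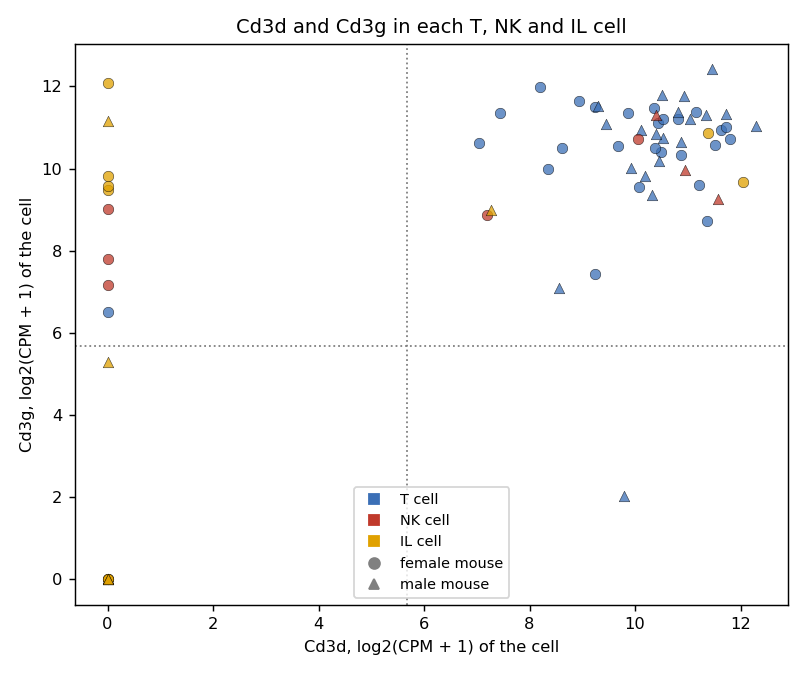
Cd3d (x axis) and Cd3g (y axis) in each of the 72 T, NK and IL cells, as log2(CPM + 1), with dotted lines at 50 CPM, colour for the labelled subtype and shape for the animal. Most T cells lie at the upper right, and 5 IL cells, 3 NK cells and 1 T cell lie above the horizontal line with Cd3d at 0. Cells with 0 reads of both genes lie on top of each other at the lower left.

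The 3 lymphocyte subtypes were then compared with edgeR's quasi-likelihood test on the libraries summed per animal (n = 2 animals per subtype, adjusted p from a fit over 15 subtypes, corrected by Benjamini and Hochberg over 15600 genes). The common biological coefficient of variation was 1.152, so only large differences could pass. Over all genes, 87.6% of the calls between T and NK cells were higher in T cells, 83.1% of those between T and IL cells were higher in T cells, and 42.3% of those between NK and IL cells were higher in NK cells. With all cells given equal weight these splits were 69.4%, 70.6% and 50%. The split between NK and IL cells turned with the libraries used: it was 76% with only the T, NK and IL libraries in the fit and 52.8% without the NK library of the male, but 24.3% in run DC35 alone and 26.9% without the IL library of the male. Of the 10 genes, 0 were called for T against NK cells, where 1.29% of all tested genes were called, and 4 had an unadjusted p under 0.05 (Cd4, Ncr1, Klrb1c and Gzma), as had 16.6% of all genes. For T against IL cells 0 were called, where 1.13% of all genes were, and 4 had an unadjusted p under 0.05 (Trac, Cd4, Gzma and Prf1), as had 14.8% of all genes. For NK against IL cells 1 was called, where 2.28% of all genes were, and 5 had an unadjusted p under 0.05, as had 18.1% of all genes. The called gene was Gzma. The median log2 fold change of the 10 genes was 0.87, 4.07 and 8.71 in the order above (6.34 in place of 8.71 with genes at 0 reads set to the bound against 3 reads), beside 0.41, 0.28 and 0 over all genes.

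Gzma had 113470 reads in NK cells and 0 in IL cells, a level at least 60461-fold higher in NK cells against 3 reads over all IL cells (adjusted p 0.0278). It was called in 8 of 13 alternatives, and the adjusted p ran from 0.00385 to 0.112. The call was lost without the NK library of the male (0.0544), without either IL library (0.112 and 0.107), in run DC35 alone (0.0868) and with DESeq2 (0.0791). In both animals NK cells lay above IL cells. The folds given as at least a value, here and below, are bounds on the counting of reads only. They do not cover the spread between cells or animals.

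Of the members that were not called, Klrb1c, Cd4 and Ncr1 had the lowest adjusted p. Klrb1c was at least 10727-fold higher in NK than in T cells (adjusted p 0.0603) and at least 4001-fold higher than in IL cells (adjusted p 0.0563). Cd4 was at least 842-fold higher in T than in NK cells (adjusted p 0.0627) and at least 1346-fold higher than in IL cells (adjusted p 0.0653). Ncr1 was at least 1896-fold higher in NK than in IL cells (adjusted p 0.0867). Few of the 13 alternatives called them. Klrb1c was called in 1 between NK and T cells and in 2 between NK and IL cells. Cd4 was called in 1 in both of its comparisons, and Ncr1 in 1. DESeq2 called Cd4 and Klrb1c for T against NK cells, Trac and Cd4 for T against IL cells, and Trac, Ncr1 and Klrb1c for NK against IL cells, but it called 17%, 14.6% and 19.7% of all genes in these comparisons.

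The CD3 genes were not told apart between T and NK cells. The log2 fold change of T over NK cells was 1.00 ± 2.81 (SE) for Cd3d, 0.91 ± 2.31 for Cd3e, 0.84 ± 1.79 for Cd3g and 1.04 ± 2.45 for Trac, with adjusted p from 0.936 to 0.982. Each error is larger than its estimate. Of T over IL cells it was 2.95 ± 2.99 for Cd3d, 5.18 ± 2.74 for Cd3e and 1.26 ± 1.80 for Cd3g. Trac, with 52730 reads in T cells and 1 in IL cells, had a ratio of 19664 (counting interval 3529 to 776720, adjusted p 0.132). Il7r differed by 2.37 ± 1.51 between T and NK cells and by 0.68 ± 1.44 between T and IL cells.

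Lists of genes that work with the members were counted in the same fits. Of 27 genes of the T cell receptor and its signalling, all tested, 0 were called in each of the 3 comparisons. At an unadjusted p under 0.05, 4 were higher and 0 lower in T than in NK cells, 9 and 0 for T against IL cells, and 5 and 2 for NK against IL cells. DESeq2 called 3 and 0, 7 and 0, and 5 and 2. Over all genes the shares higher and lower at an unadjusted p under 0.05 were 12.8% and 3.74%, 11.4% and 3.41%, and 8.45% and 9.67%, and with DESeq2 they were 12.6% and 4.37%, 11.1% and 3.52%, and 9.43% and 10.2%. For T against NK cells, 4 and 3 of 27 genes are close to those shares, and the counts of the lists below stand against the same shares. The median log2 fold change of the list was 1.31, 2.02 and 0.52, beside 0.41, 0.28 and 0 over all genes.

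The 4 genes of that list with the highest mean level were Trbc1, Trbc2, Skap1 and Lck. Trbc1 and Trbc2, the constant genes of the beta chain, were at 1833 and 1518 CPM in the T cells of the female, 1694 and 2285 CPM in those of the male, 308.4 and 370.99 CPM in the NK cells of the female, 1219 and 628 CPM in those of the male, and 525 and 456 CPM, and 259.3 and 569 CPM, in IL cells. Trbc2 was found in 45 of 46 T cells, 6 of 12 NK cells and 13 of 14 IL cells. Skap1, an adaptor of receptor signalling, was at 905 and 982 CPM in T cells, 481 and 732 CPM in NK cells and 1048 and 1044 CPM in IL cells. Lck, the kinase that starts receptor signalling, was at 1278 and 1165 CPM in T cells and 2146 and 779 CPM in NK cells but at 21.7 and 1.21 CPM in IL cells.

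Of 18 genes of T cell state, 2 were called higher in T than in IL cells, 0 lower, and 0 were called for T against NK cells, where 4 were higher and 1 lower at an unadjusted p under 0.05 and with DESeq2. Klf2, a transcription factor of resting and circulating lymphocytes, stood at 479 and 485 CPM in T cells and had 0 reads in IL cells, at least 3653-fold higher (adjusted p 9.65e-05). Against IL cells it was also called in NK cells, at 65.3 and 447 CPM (adjusted p 0.000211). Il2ra, the alpha chain of the interleukin 2 receptor, was called higher in IL than in NK cells, at 196.3 and 105.5 CPM against 0 reads (adjusted p 0.0395, 0.0534 with the replicate block, 0.097 without the 5 cells named above, range 4.86e-06 to 0.138 over 13 alternatives). Ccr7, a homing receptor to lymph nodes, stood at 2482 and 1798 CPM in T cells and was at 0 in NK and IL cells, but was not called.

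Of 33 cytotoxic and NK genes, 26 were tested and 6 were called higher in NK than in IL cells, 0 lower (18 and 0 at an unadjusted p under 0.05, 14 and 0 with DESeq2). Between T and NK cells 0 were called higher and 2 lower in T cells (0 and 15, 0 and 11), and between T and IL cells 2 higher and 0 lower (8 and 1, 6 and 1). Called between NK and IL cells are Ccl5, Cd160, Fcgr3, Ifng, Klrd1 and Tyrobp, each with 0 reads in IL cells. Ccl5, a chemokine, stood at 1302 and 8583 CPM in NK cells (adjusted p 0.0161). Ifng, the cytokine interferon gamma, stood at 1139 and 262.8 CPM (adjusted p 0.0141), and 81.4% of its reads came from 1 cell. Ifng was also called higher in NK than in T cells, where it had 0 reads, at least 15643-fold (adjusted p 0.0154). With DESeq2 both calls of Ifng were lost (adjusted p 0.198 against IL and 0.15 against T cells), and they held in 9 and 8 of 13 alternatives. They were also lost without the NK library of the female (0.0557 and 0.0618), without either IL library for the call against IL cells (0.055 and 0.0548) and without either T library for that against T cells (0.0992 and 0.069). Without the IL library of the female or of the male the calls of Ccl5 (0.0831 and 0.0786), Cd160 (0.14 and 0.129) and Klrd1 (0.166 and 0.15) were lost as well, and those of Cd160 and Klrd1 also without the NK library of the male (0.0745 and 0.0598).

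Tyrobp and Fcgr3, which both NK cells and macrophages use, were also called higher in T than in IL cells. Fcgr3, an Fc receptor, stood at 143.5 and 22.3 CPM in T cells and 175.9 and 321.4 CPM in NK cells. Tyrobp, the adaptor DAP12, stood at 230.3 and 66.7 CPM in T cells, 1293 and 554 CPM in NK cells and at 0 reads in IL cells, and it was called in all 3 comparisons. In T cells 50.9% of its reads came from 1 cell, and the macrophage and monocyte markers summed to 1360 CPM in the T cells of the female and 459 CPM in those of the male, with C1qa at 0 in both. The 5 cells left out above include the T cells with Lyz2 at 1000 CPM or more. Without them the log2 fold change of Tyrobp in T over NK cells was -5.65, against -2.47 with them. The part of the macrophage and monocyte genes in the level of Tyrobp was not tested. Without the 5 cells Tyrobp was still called for T against IL cells (adjusted p 0.0213) but not for T against NK cells (0.0539, range 3.73e-05 to 0.58, with 0.141 without the T library of the male and 0.0909 without the NK library of the female), and Fcgr3 was still called for T against IL cells (0.00618).

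Of 27 innate lymphoid genes, 22 were tested. Called lower in T than in IL cells were 3, Id2, Il1rl1 and Il5, and 0 were called higher (0 and 11 at an unadjusted p under 0.05 and with DESeq2). Lower in NK than in IL cells were 3, Il1rl1, Il2ra and Il5, and 0 were higher (0 and 12, 0 and 11), and 1, Id2, was lower in T than in NK cells (2 and 3, 3 and 4). Id2, a regulator that all innate lymphoid cells need, stood at 217.9 and 45.1 CPM in T cells against 3138 and 3290.1 CPM in IL cells (log2 fold change -4.47 ± 0.78, SE, adjusted p 0.00649). It was also lower in T than in NK cells, which had 2143 and 1981 CPM (log2 fold change -3.82 ± 0.76, adjusted p 0.0151). Both calls of Id2 held in 10 of 13 alternatives, with an adjusted p of up to 0.136 against IL and 0.218 against NK cells, and both were lost without the T library of the male (0.0555 and 0.0943). Il1rl1 was lower in T than in IL cells (adjusted p 0.0395, 0.0538 with the replicate block, range 3.23e-07 to 0.514) and in NK than in IL cells (adjusted p 0.0127, 0.0576 and 0.0644 without the NK library of the female and male). Il5, a cytokine of type 2 responses, was at 217.3 and 476 CPM in IL cells, with 1 read in T cells (adjusted p 0.0479, 0.0787 with the replicate block, range 0.0401 to 0.224) and 0 in NK cells (adjusted p 0.0364, 0.0533 with the replicate block, range 0.0347 to 0.116).

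Of 9 partners of the interleukin 7 receptor, all tested, 0 were called in any comparison. At an unadjusted p under 0.05, 1 was higher and 1 lower in T than in NK cells, and 2 were lower in T than in IL cells and 2 in NK than in IL cells, with the same counts in DESeq2. Il2rg, the common chain that pairs with Il7r, was at 781 and 699.9 CPM in T cells, 554 and 837 CPM in NK cells and 1133 and 1142 CPM in IL cells. Cish, which interleukin signals induce through STAT5, was at 52.5 and 1.37 CPM in T cells, 31.9 and 40.8 CPM in NK cells and 880.4 and 826 CPM in IL cells.

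The median log2 fold change of the other lists is given for T against NK, T against IL and NK against IL cells, also with genes at 0 reads on 1 side set to their bound against 3 reads where that moved it. For the state list the medians were 1.94, 2.82 and -0.01. For the cytotoxic list the medians were -3.54, 1.13 and 13.16, with 0.18 in place of 1.13 and 8.95 in place of 13.16 at the bound. For the innate lymphoid list the medians were -1.67, -5.75 and -4.94, with -1.06 in place of -1.67 at the bound. For the interleukin 7 receptor list the medians were 0.58, 0.55 and -0.57. The median over all genes also depends on scaling. It was 0.41 for T against NK cells and 0.28 for T against IL cells with TMM, and 0.04 in both with the size factors of DESeq2.

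Outside the T, NK and IL cells, Cd3d was found in 37 of 1111 cells and the T set in 16. The 3 patterns described next therefore do not cover every cell with a member. The first is Il7r, found in 9.99% of the 1111 other cells. Basophils had it at 215.4 CPM (female) and 219.9 CPM (male), and it was found in 19 of 34 cells of the female and 10 of 19 of the male (54.7% in both, exact interval 40.4% to 68.4%). DC III, a dendritic subtype with high Ccr7, had it at 77.5 and 196.5 CPM and in 9 of 22 cells, and DC II in 7 of 25. In Mac III it was found in 35 of 390 cells (8.97%, 6.33% to 12.3%), below the interval in basophils, at median depths of 1252011 and 1108525 reads per cell. Among neutrophils 0 cells had Il7r, which allows a share of up to 2.24%, and the order of basophils and NK cells could not be given since their animals overlapped.

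The second is Cd4 in Mac IV, a macrophage subtype with high C1qa. Cd4 stood there at 35.03 CPM (female) and 39.1 CPM (male) (37.05 ± 2.85, SD, n = 2 animals), next below T cells and above every other subtype in both animals. It was found in 15 of 63 cells of the female (23.8%, exact interval 13.98% to 36.2%) and 18 of 79 of the male (22.8%, 14.1% to 33.6%), at 53.8 to 558 CPM. Thinned to 100000 reads it was 21.1% of cells. Of these 33 cells, 3 also had the T set, all in the female. Without cells with the T set the level was 27.2 and 39.7 CPM. In the 390 Mac III cells 0 had Cd4 at 50 CPM, which allows a share of up to 0.769%.

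**Figure D5:**
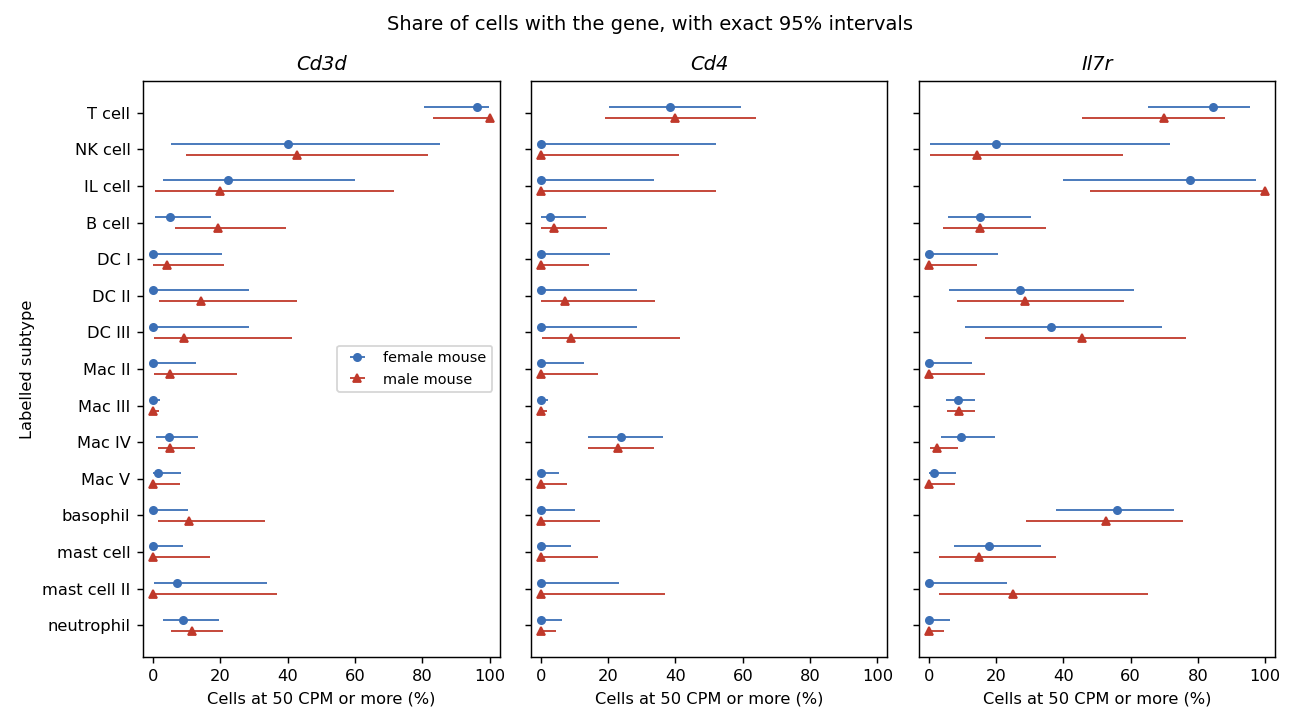
Share of cells with Cd3d, Cd4 and Il7r at 50 CPM or more in each labelled subtype, for the female (circles) and the male (triangles), with exact 95% intervals that cover counting error only. Cd4 stands out in Mac IV (23.8% and 22.8%) and Il7r in basophils (55.9% and 52.6%) and DC III, beside T and IL cells.

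The third is the T set in cells with another label. It was found in 16 of 1111 cells (1.44%): 6 of 65 B cells, 4 Mac IV cells (2.82%), 2 of 25 DC II cells and 1 cell each of DC III, Mac II, Mac V and neutrophils. The 6 B cells split: 5 had 0 reads of Cd79a, part of the B cell receptor, although 2 of these had Cd79b at 172.8 and 120.8 CPM, while 1 had Cd79a at 3169 CPM. Among the 59 B cells without the T set, 58 had Cd79a at 50 CPM or more, with a median of 4086 CPM. So 5 cells go against the label B cell. In B cells Cd3g was at 139.4 and 187.3 CPM with the 6 cells and at 10.2 and 9.71 CPM without them. Trac was at 137.2 and 90.4 CPM with them and at 11.5 and 5.76 CPM without. Since the T set was defined on these genes, a fall was fixed in advance, and the values are a description.

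The 4 Mac IV cells with the T set differed from these, as they kept the marker of their own label, with C1qa at 3107 to 6036 CPM and Lyz2 at 2907 to 30817 CPM. The part of wells that held more than 1 cell was not tested. Without the 4 cells Cd3d in Mac IV was at 0.0109 and 2.71 CPM, against 15.5 and 23.2 CPM with them. This is again a description, as Cd3d is a gene of the T set. Neutrophils had Cd3d in 14 cells (10.4%, exact interval 5.83% to 16.9%), at 56.8 to 1722 CPM, and 13 of those 14 had no T set. Cd3e had 8 reads in all neutrophils together, 4 in each animal. The cytotoxic set, at least 2 of the 4 NK genes, was found in 2 of 1111 cells, a B cell of the male and a mast cell of the female. Klrb1c stood at 33.3 and 5.47 CPM in Mac II, with 61.1% of the reads from 1 cell.

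The genes with the most similar pattern over the 30 summed libraries were found by Pearson's r of log2(CPM + 1), among 10509 genes with a mean of at least 5 CPM. They describe these libraries, which share 2 animals and a few plates. Cd3d was nearest to Txk (r = 0.86), Trbc1 and Zap70, Cd3e to Gimap3 (0.94), Lck and Zap70, and Cd3g to Txk (0.96), Sh2d2a and Bcl11b. Trac was nearest to Ms4a4b (0.89), Cd40lg and 1810041H14Rik. For Cd4 they were A630023P12Rik (0.82), Cd8b1 and Trat1, and for Il7r Skap1 (0.82), Il2rg and Gimap1. Ncr1 was nearest to Xcl1 (0.95), Ifng and Tbx21, Klrb1c to Samd3 (0.87), Xcl1 and Ifng, and Gzma to Xcl1 (0.95), Klrc2 and Tbx21. Among the members, r was 0.88 for Cd3d with Cd3g, 0.89 for Ncr1 with Klrb1c and 0.86 for Ncr1 with Gzma, while Klrb1c with Il7r gave -0.0033. Prf1 had a mean below 5 CPM and was left out.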

How the data were processed

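RNA of single sorted cells from the lungs of 2 mice was sequenced on plates, and each cell is 1 sample. The authors deposited 1 table of raw read counts per gene and cell, with a table of cell labels. Per the submitters' processing notes the tools were STAR 2.5.2b and HTSeq 0.10, and the only genome build named is GRCh38, a human build, although the genes are mouse genes. Strand settings and the treatment of reads shared by similar genes are not given in the sources used here.

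Counts were turned into CPM by each cell's total. They were also summed per animal and labelled subtype, which gave 30 libraries of 15 subtypes, each of 5 or more cells. These were tested with edgeR 4.0.16 (R 4.3.3; TMM, filterByExpr, quasi-likelihood, 1 coefficient per subtype), with Benjamini-Hochberg adjustment over all tested genes and calls under 0.05. The fit was also run on simulated counts, where each unchanged gene had 1 mean share over all subtypes, unlike these data. That run is no check of the calls reported here. The 2 animals are the replicates, and they also differ in sex. The p-values rest on a spread between their libraries that was estimated over all 15 subtypes, and not on T, NK and IL cells alone. Shares have exact Clopper-Pearson 95% intervals, and a count of 0 was bounded by 3 reads or cells.

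Named are the 10 members, the 3 genes nearest in pattern to each, and of each list the called genes and the 4 with the highest mean level. Members and lists were chosen with earlier results of these data known. Further genes shown per cell (such as Trdc, Lyz2 and Cd79a) check labels. Some genes of the lists are counted but not reported by name here. The same animal pairs libraries across subtypes, and the correlation of the female minus male deviations was 0.0193 for T with NK, 0.0384 for T with IL and 0.0355 for NK with IL cells. Alternatives were the animal as a replicate block, DESeq2 1.42.0, its size factors, no filter, fewer subtypes in the fit, cells scaled to 1 total, run DC35 alone, CD45 plates alone, each library left out, other thresholds, thinning to 100000 reads and, chosen after seeing the data, leaving out 5 cells of doubtful label or depth or the cells with the T set.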

Additional observations from a re-analysis of the deposited data

Results flagged for a closer look

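For 5 member comparisons the difference between subtypes pointed one way in the female and the other way in the male, on the log2(CPM + 1) scale of the summed libraries. The difference between the animals was not tested. For Trac, T minus NK cells gave 5.40 in the female and -0.042 in the male. For Prf1, T minus NK cells gave 0.73 and -5.93. For Il7r, T minus IL cells gave 1.27 and -0.46. For Cd3d, NK minus IL cells gave -0.35 and 5.52, and for Cd3g -0.48 and 1.19. Groups of 2 animals are too small for a test of outlying samples.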

How the results depend on the processing

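The share of genes called moved most. For T against NK cells (1.29% of genes) it was 16.98% with DESeq2, 0.00955% (1 gene) with only the T, NK and IL libraries in the fit and 0.436% in run DC35 alone. With 1 library left out it was 0.319% and 0.665% without the T cells of the female and male, and 2.04% without the NK cells of the female. For T against IL cells (1.13%) it was 14.6%, 0.21% and 0.132% under the first 3 alternatives, 0.578% without the 5 cells in doubt, 0.289% and 0.749% without the T cells of the female and male, and 0.641% and 0.461% without the IL cells of the female and male. For NK against IL cells (2.28%) it was 19.7%, 0.239% and 0.925%, 1.54% with all cells given equal weight, 3.34% without the NK cells of the female and 1.45% without the IL cells of the male. Without the cells in doubt 75.98% and 58.9% of the calls were higher in T than in NK and IL cells, against 87.6% and 83.1%. With the animal as a replicate block the paired shares were 1.25%, 0.949% and 2.13%. The block ended 5 calls of list genes, 4 of them given above with their values, and no call of a member.

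The sign of a member's log2 fold change turned in 5 refits: Trac, T against NK cells, to -0.060 without the NK cells of the female; Prf1, T against NK cells, to 0.13 with the replicate block (-1.55 without); Il7r, T against IL cells, to -0.21 without the T cells of the female; and Cd3g, NK against IL cells, to -0.36 with cells weighted equally and -0.13 without the NK cells of the male. None of these was called, and the cause was not tested. Over all refits and comparisons a member gained a call 9 times. DESeq2 alone gave 2, 2 and 3 of these for T against NK, T against IL and NK against IL cells. It called 17%, 14.6% and 19.7% of all genes there. The others were Gzma for T against NK cells and Klrb1c for NK against IL cells. A call was lost only for Gzma between NK and IL cells, in 5 refits. The T set was in 100% of T cells at 10 CPM, with 1 gene required or after thinning, and in 57.1% of IL cells with 1 gene required. With 5 to 26 cells per library, the tests describe labelled classes of 2 animals. A lone library of a subtype was assumed to vary like the others.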

Other observations

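Variable segments of the receptor genes were looked at after their values were seen, as a description. Of the Trbv segments in the table, 15 of 26 T cells of the female had 1 at 50 CPM or more, 9 had more than 1 and 2 had none, and in the male the counts were 17, 2 and 1 of 20. Trbv19 was in 8 of 46 T cells, and Trbv3 and Trbv12-2 in 6 each. No IL cell had a Trbv or Trav segment at that level. Trav segments were also missing in 21 of 26 T cells of the female and 10 of 20 of the male. The absence of Trav segments therefore does not set IL cells apart. Trbv segments were missing in only 2 of 26 and 1 of 20 T cells, but also in 5 of 5 and 4 of 7 NK cells.

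Trdv4, a variable segment of the delta chain, was at 50 CPM or more in 9 of 9 IL cells of the female and 3 of 5 of the male, with medians of 235.8 and 72.03 CPM. It was found in 2 of 26 and 1 of 20 T cells, and in 2 of 5 and 0 of 7 NK cells. Whether these reads come from rearranged genes cannot be read from counts per gene.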
